A study of Homo sapiens with 12 samples.

Results

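Control cells of the leukaemia line 697 (EU3), a human B-cell precursor line, were compared between set 2 and set 4. They made up 4 of the 12 libraries of the series: 1 untreated and 1 doxycycline-treated library of each set, chosen by titles that name no SH2 construct. Each set is a separate sort of cells with high aldehyde dehydrogenase activity (ALDH-positive) and a separate doxycycline treatment. All 4 libraries are labelled as control cells for the doxycycline treatment, and whether they hold the protocol's scrambled shRNA is not stated. The other 8 libraries are SH2 cells, labelled as ALDH-positive cells of the same line with a doxycycline-inducible shRNA against the RNA-binding protein IGF2BP1 and a green fluorescent reporter, untreated and treated in sets 1 to 4; those of sets 2 and 4 are used here beside the control cells. Reads came from transcript ends beside the poly(A) tail, so genes are counted mainly at their last exon. The comparison was proposed because the sets were already known to differ in these files, so its values are a description, and the adjusted p threshold applied to it below only sorts genes. The same contrast was tested in SH2 cells of the same sets, which share no library with the control cells.

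As background, precursor B cells assemble their heavy chain first and pair it with the surrogate light chain, which VPREB1 and IGLL1 encode, before a true light chain replaces it. T-cell genes such as the CD3 chains, which carry the signal of the T-cell receptor, are kept silent in most cells of the B lineage, although leukaemic cells can express genes of another lineage.

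Set 2 had 2210291 reads assigned to genes in the untreated and 3232769 in the treated library, and set 4 had 2621963 and 2768163. Between 16114 and 17306 genes had a count. Levels are CPM, counts scaled to a common library size (TMM), and differences are log2 of set 2 over set 4 with doxycycline as a covariate, given with their standard error (SE). Of 10554 genes tested, 681 were higher in set 2 (6.45%) and 372 were lower (3.52%), 1053 in all (9.98%), at an edgeR adjusted p threshold of 0.05. In 25.5% of them both libraries of set 2 were above both of set 4 and in 25.6% below, so that 51.1% did not overlap. The median difference over all genes tested was 0.00. Library pairs of the same set had a Pearson r of log2 CPM of 0.971 in set 2 and 0.958 in set 4 across 11968 genes, which are not independent replicates, and pairs across the sets had 0.924 to 0.929. The untreated and treated library of a set came from 1 sort, so the spread behind every SE is that between 2 libraries of a sort, not between sorts. An exact permutation of 2 libraries against 2 cannot give a p below 0.333. A fit of all 12 libraries put 207 of 11968 genes past the same threshold, 171 of them higher in set 2 and 36 lower. With any 1 of the 4 control libraries left out of that fit, at most 1 member of a gene list was past the threshold, except for T-cell genes.

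T-cell genes were higher in set 2 as a sum. The summed level of all 21 listed genes was 2038 CPM in untreated and 2288 CPM in treated cells of set 2, against 286 and 157 CPM in set 4. Of these genes 14 had enough counts to be tested, and 11 were past the threshold in the direction of set 2, beside 6.45% of all genes tested. Of the 14, 8 reached the count minimum in both libraries of set 2 only, so they had to differ, and nothing is read from the counts over the 14. The other 7 genes were too low for a test. The 12-library fit put 7 past the threshold and DESeq2 6. Without 1 control library that fit put 1 past it (treated, set 2), 4 (treated, set 4) or 8 (either untreated library). A smaller share of cells with these transcripts and less of the transcripts per cell cannot be told apart in such bulk libraries, here and below.

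CD3D (ENSG00000167286, chromosome 11, 118338954 to 118342744 on GRCh38) encodes the delta chain of CD3. It stood at 232 CPM untreated and 241 CPM treated in set 2, against 10.5 and 8.79 CPM in set 4, a log2 difference of 4.62 ± 0.32 (SE). CD3E, the epsilon chain, had 103 and 103 CPM in set 2, against 7.59 and 1.91 CPM in set 4 (4.48 ± 0.36). For CD3D the libraries of each set lay close together and the sets did not overlap. For CD3E only the libraries of set 2 lay close together. CD3G, the gamma chain, had 206 and 193 CPM in set 2, against 18.8 and 3.06 CPM in set 4 (4.37 ± 0.44). In the treated library of set 4 CD3E had 5 reads and CD3G 3.06 CPM, both under the count minimum of 10 reads. Both genes entered the test through set 2 alone, so nothing is read from their direction. The most abundant T-cell transcript was that of TRBC2, a constant gene of the T-cell receptor beta chain (chromosome 7), with 1130 and 1284 CPM in set 2, against 121 and 70.7 CPM in set 4 (3.71 ± 0.28). TRBC1 is nearly the same in sequence, so reads of TRBC1 and TRBC2 can be mistaken for each other, and TRBC1 had 2.37 and 1.60 CPM in set 2, against 0.36 and 0 in set 4.

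The kinase LCK, which starts signalling from the T-cell receptor (chromosome 1), had 108 and 141 CPM in set 2, against 28.9 and 20.6 CPM in set 4 (2.34 ± 0.28). GATA3, a transcription factor of T-cell development, had 37.0 and 56.7 CPM in set 2, against 3.25 CPM and 0 in set 4. The coreceptor CD4 had 79 reads over both libraries of set 2 and 1 read over those of set 4, a ratio of 81.4 with an exact 95% counting interval of 14.2 to 3254. LCK was higher in both libraries of set 2. In the untreated and treated library of set 4 GATA3 had 9 and 0 reads and CD4 1 and 0, under the count minimum of 10. Both entered the test through set 2 alone, so nothing is read from their direction. Some T-cell genes were low or absent: CD8B was at 0 in all 4 control libraries, CD8A had at most 0.96 CPM and CD2 at most 3.32 CPM. ZAP70, a kinase of the same pathway as LCK, stood at 17.6 and 13.8 CPM in set 2, against 13.0 and 4.97 CPM in set 4. MAL, a membrane protein known from T cells and outside the marker list, had 211 and 385 CPM in set 2, against 12.7 and 3.06 CPM in set 4 (5.21 ± 0.67). Others among the 15 largest differences toward set 2 were the adaptor GRAP2 (4.80 ± 0.56), the neuritin gene NRN1 (5.37 ± 0.40), the tetraspanin TSPAN7 (4.69 ± 0.42) and the adhesion molecule JAM3. JAM3 had 119 reads in set 2 and 1 read in set 4, a ratio of 123 (21.6 to 4881). GRAP2, NRN1, TSPAN7 and JAM3 had at most 8 reads in either library of set 4, under the count minimum of 10. MAL had 8 reads in the treated library of set 4. These genes entered the test through set 2 alone, so nothing is read from their direction.

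**Figure D1:**
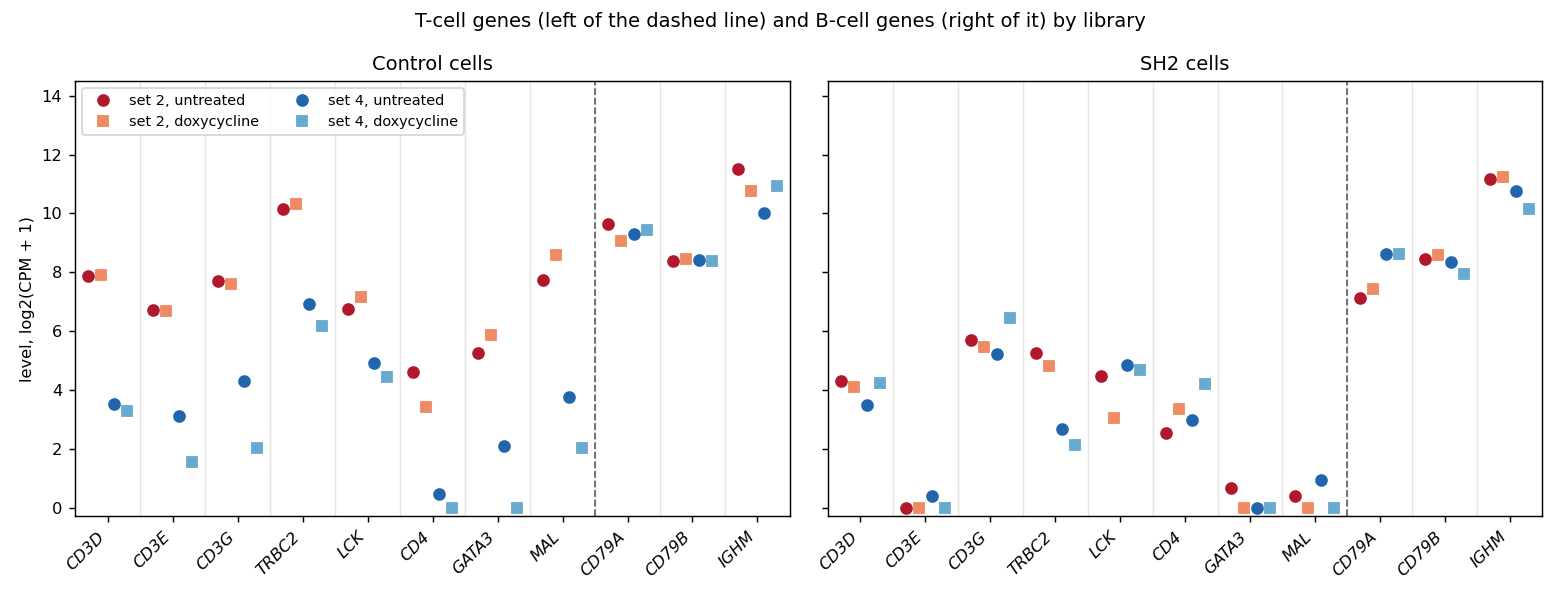
Levels of T-cell and B-cell genes on the log2(CPM + 1) scale in each library of sets 2 and 4, control cells in the left panel and SH2 cells in the right one; each point is 1 library. In control cells CD3D stood at 232 and 241 CPM in set 2, against 10.5 and 8.79 CPM in set 4, while CD79B stood between 331 and 348 CPM in all 4.

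The signalling chains of the B-cell receptor differed little between the sets. CD79A, a signalling chain of that receptor, had 796 and 534 CPM in set 2, against 629 and 688 CPM in set 4 (-0.00 ± 0.24). CD79B, its partner, had 331 and 348 CPM in set 2, against 343 and 334 CPM in set 4 (0.02 ± 0.24). The groups overlapped for CD79A. The kappa light chain gene IGKC had 1271 and 847 CPM in set 2, against 1489 and 1505 CPM in set 4 (-0.52 ± 0.24), which was not past the threshold. Of 21 B-cell receptor and surface genes tested, 1 was past it toward set 2 and 1 toward set 4, near the shares over all genes (6.45% and 3.52%). In 5 of the 21 both libraries of set 2 were above both of set 4 and in 7 below, beside 25.5% and 25.6% of all genes tested. The gene past the threshold toward set 2 was CR2, a complement receptor of mature B cells. It had 266 and 348 CPM in set 2, against 75.2 and 114 CPM in set 4 (1.73 ± 0.26). The kinase SYK was the one toward set 4 (-0.95 ± 0.26). Genes that mark SH2 cells were taken from an earlier account of these same data, so a low level in control libraries can follow from that choice. Their summed level over 11 genes was 2.85 and 3.20 CPM in set 2, against 0.72 and 1.91 CPM in set 4, and nothing is read from it. Erythroid and platelet markers summed to at most 1.91 CPM and myeloid markers to at most 16.1 CPM in any control library. Natural killer markers summed to 44.6 and 43.3 CPM in set 2, against 145 and 124 CPM in set 4, nearly all of it granzyme A (GZMA, 38.9 and 36.2 CPM against 131 and 117 CPM), with NCR1, FCGR3A and GZMB at 0. The part of cells of another type in the differences below was not tested.

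RUNX factors are known regulators of T-cell genes, and the promoters of CD3D and LCK are printed because both genes were among those apart in control cells and both hold the RUNX letters TGTGGTT. The 300-base windows run from 250 bases before to 50 after the RefSeq start (GRCh38.p14), 5′ to 3′ on the gene's strand, with the searched letters in capitals, read on either strand. Of 11 T-cell markers with a window 3 held the motif (27.3%), and of all 27305 genes with a window 5.23% did. This motif and those below were chosen after the groups were seen; a match describes the letters and is not a binding site.
CD3D promoter, chr11:118342656-118342955, minus strand: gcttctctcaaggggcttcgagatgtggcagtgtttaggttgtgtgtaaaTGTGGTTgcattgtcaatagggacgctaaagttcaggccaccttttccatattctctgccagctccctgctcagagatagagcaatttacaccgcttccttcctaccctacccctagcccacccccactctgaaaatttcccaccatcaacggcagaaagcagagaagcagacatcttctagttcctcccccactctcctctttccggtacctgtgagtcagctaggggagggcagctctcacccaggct
LCK promoter, chr1:32251015-32251314, plus strand: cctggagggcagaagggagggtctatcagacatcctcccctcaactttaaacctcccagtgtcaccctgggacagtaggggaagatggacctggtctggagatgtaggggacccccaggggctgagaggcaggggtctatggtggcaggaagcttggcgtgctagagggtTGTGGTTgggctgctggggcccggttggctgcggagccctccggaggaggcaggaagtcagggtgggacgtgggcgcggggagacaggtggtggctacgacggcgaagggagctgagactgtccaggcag

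Precursor B-cell genes split between the sets. Of 20 listed genes 16 were tested, 3 were past the threshold toward set 2 and 4 toward set 4, beside 6.45% and 3.52% of all genes tested. The surrogate light chain gene VPREB1 (chromosome 22, 22244675 to 22245515) had 26.1 and 34.0 CPM in set 2, against 219 and 82.5 CPM in set 4 (-2.14 ± 0.34), and IGLL1, its partner, 74.0 and 69.9 CPM against 284 and 90.5 CPM (-1.15 ± 0.30). In both genes the untreated library of set 4 stood well above the treated one, and the groups did not overlap. IL7R, the receptor for the growth factor IL-7, had 38.9 and 64.1 CPM in set 2, against 166 and 107 CPM in set 4 (-1.38 ± 0.28). The transcription factor SOX4, which B-cell progenitors need, ran the other way, with 1025 and 1231 CPM in set 2, against 379 and 313 CPM in set 4 (1.72 ± 0.25). CD99, a surface protein of immature lymphocytes, did so too, with 137 and 169 CPM in set 2, against 48.4 and 35.9 CPM in set 4 (1.87 ± 0.27). PAX5 and EBF1, the factors that fix the B-cell fate, had -0.41 ± 0.25 and -0.53 ± 0.29 and were not past the threshold. Of 23 B-lineage transcription factors tested, 4 were past it toward set 4, among them XBP1, MEF2C and IRF4. By the Wald test of DESeq2 the precursor list had 2 genes toward set 2 and 1 toward set 4, and the 12-library fit 2 and 0. Neither put a B-lineage transcription factor past the threshold.

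Genes of glycolysis and the hypoxia response were higher in set 2. Of 32 members tested, 14 were past the threshold toward set 2, beside 6.45% of all genes tested, and 0 toward set 4, and 29 had a positive difference, with a median of 0.73 (0.80 between the untreated and 0.62 between the treated libraries). ENO2, the neuronal form of enolase (chromosome 12, 6913745 to 6923698), had 113 and 142 CPM in set 2, against 15.2 and 13.4 CPM in set 4 (3.16 ± 0.30). ALDOA, the main aldolase, had 1089 and 673 CPM in set 2, against 335 and 285 CPM in set 4 (1.48 ± 0.25). The phosphoglycerate kinase gene PGK1 had 223 and 173 CPM in set 2, against 85.3 and 55.8 CPM in set 4 (1.52 ± 0.26). Every set 2 library exceeded every set 4 library in these 3 genes. ALDOC, a further aldolase, had 379 and 269 CPM in set 2, against 147 and 103 CPM in set 4 (1.39 ± 0.25). LDHA, which turns pyruvate to lactate (1.11), GAPDH (0.93) and BNIP3, a hypoxia-induced mitophagy gene (1.49), were past the threshold too. In the 12-library fit 4 members were past the threshold and with DESeq2 8, none toward set 4 in either. Of the 32 members tested, 2 reached the count minimum in both libraries of set 2 only.

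The hypoxia-inducible factors are known to bind the letters of the hypoxia response element, and ENO2 and ALDOC are shown since both hold TACGTG. It was found, on either strand, in 10 of 31 list genes with a promoter window (32.3%) and in 3.98% of all genes with one. By window it was found in 10 of 60 list windows, against 3.24% of all windows.
ENO2 promoter, chr12:6914330-6914629, plus strand: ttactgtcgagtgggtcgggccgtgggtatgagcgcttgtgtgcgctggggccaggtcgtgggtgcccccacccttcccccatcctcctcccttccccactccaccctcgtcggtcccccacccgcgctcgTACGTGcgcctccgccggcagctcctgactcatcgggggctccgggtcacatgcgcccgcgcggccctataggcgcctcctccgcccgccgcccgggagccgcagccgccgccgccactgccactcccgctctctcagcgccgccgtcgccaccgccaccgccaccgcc
ALDOC promoter, chr17:28576846-28577145, minus strand: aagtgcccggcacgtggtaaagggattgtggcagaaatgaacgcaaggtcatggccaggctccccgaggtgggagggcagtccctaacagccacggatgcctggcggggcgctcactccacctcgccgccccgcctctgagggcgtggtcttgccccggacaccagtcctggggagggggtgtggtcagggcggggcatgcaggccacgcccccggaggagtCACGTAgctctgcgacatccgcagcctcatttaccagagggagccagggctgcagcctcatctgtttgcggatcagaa

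Genes of DNA replication and mitosis were higher in set 2. Of 40 G1/S and replication genes tested 16 were past the threshold and of 41 G2 and mitosis genes 14, all toward set 2, beside 6.45% of all genes tested, with medians of 0.76 and 0.59. Thymidylate synthase (TYMS), which makes a DNA building block, had 158 and 235 CPM in set 2, against 68.3 and 54.6 CPM in set 4 (1.66 ± 0.27). RRM2, a subunit of ribonucleotide reductase, had 52.7 and 71.5 CPM in set 2, against 17.0 and 18.3 CPM in set 4 (1.81 ± 0.30). Both libraries of set 2 lay above both of set 4. The proliferation marker MKI67 had 187 and 212 CPM in set 2, against 58.6 and 109 CPM in set 4 (1.32 ± 0.26), and topoisomerase II alpha (TOP2A), which untangles chromosomes, 869 and 1004 CPM against 338 and 509 CPM (1.18 ± 0.25). In these mitosis genes the treated library of set 4 lay nearer to set 2 than the untreated one did. Cyclin A2 (CCNA2) had 41.3 and 45.5 CPM in set 2, against 12.3 and 15.3 CPM in set 4 (1.67 ± 0.32), and the mitotic kinesin KIF20A 26.1 and 29.8 CPM against 3.62 and 11.8 CPM (1.96 ± 0.40). The 12-library fit put 4 replication and 3 mitosis genes past the threshold, and DESeq2 3 and 4. Of the 40 replication genes, 2 reached the count minimum in both libraries of set 2 only.

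Promoters of mitosis genes are known for the cell cycle genes homology region, and the letters TTTGAA, which are its usual form, were found on either strand in 25 of 35 list genes with a window (71.4%) and in 18.2% of all genes with one. MKI67 and TOP2A, both described above, hold them and are shown. By window the letters were found in 28 of 45 list windows, against 15.2% of all windows.
MKI67 promoter, chr10:128126374-128126673, minus strand: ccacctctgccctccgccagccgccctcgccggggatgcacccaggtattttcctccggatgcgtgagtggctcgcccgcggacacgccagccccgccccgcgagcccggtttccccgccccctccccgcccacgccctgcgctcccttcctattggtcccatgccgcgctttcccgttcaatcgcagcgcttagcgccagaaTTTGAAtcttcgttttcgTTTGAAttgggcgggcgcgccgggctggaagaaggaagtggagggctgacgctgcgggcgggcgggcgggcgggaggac
TOP2A promoter, chr17:40417847-40418146, minus strand: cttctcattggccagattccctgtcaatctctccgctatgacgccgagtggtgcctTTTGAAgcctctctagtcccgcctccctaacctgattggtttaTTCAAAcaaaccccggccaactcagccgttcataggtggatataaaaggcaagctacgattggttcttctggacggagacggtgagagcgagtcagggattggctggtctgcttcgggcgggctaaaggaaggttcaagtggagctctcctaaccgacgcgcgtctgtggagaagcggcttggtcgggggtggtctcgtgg

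Stress genes of the endoplasmic reticulum were lower in set 2. The unfolded protein response is the programme with which cells answer misfolded protein in that compartment, by making chaperones and degradation factors. Of 20 members tested, 8 were past the threshold toward set 4, beside 3.52% of all genes tested, and 0 toward set 2, and 0 of 20 had a positive difference, with a median of -0.56 (-0.85 between the untreated and -0.48 between the treated libraries). HYOU1, a chaperone of the compartment (chromosome 11, 119044189 to 119057202), averaged 116 ± 5.13 CPM in set 2 and 277 ± 61.9 CPM in set 4 (SD, n = 2 each; log2 difference -1.22 ± 0.25). MANF, a secreted stress protein, had 269 and 181 CPM in set 2, against 484 and 339 CPM in set 4 (-0.86 ± 0.25). XBP1, the transcription factor of the response, had 97.3 and 84.9 CPM in set 2, against 178 and 189 CPM in set 4 (-1.002 ± 0.257). The sets did not overlap in these 3 genes, as in 15 of the 20 members in that direction, against 25.6% of all genes tested. The main chaperone HSPA5 had 689 and 606 CPM in set 2, against 1019 and 845 CPM in set 4 (-0.51 ± 0.24) and was not past the threshold. In the 12-library fit 1 member was past it and with DESeq2 1, both toward set 4.

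The endoplasmic reticulum stress response element, CCAAT and CCACG with 9 bases of any kind between them, stood on either strand in 7 of 19 list genes with a window (36.8%) and in 0.0916% of all genes with one, which makes it the rarest motif searched here. By window it stood in 9 of 25 list windows, against 0.0769% of all windows. XBP1 and CRELD2 are shown: CRELD2, a secreted stress protein, was past the threshold as XBP1 was, with 28.0 and 23.7 CPM in set 2, against 75.2 and 33.6 CPM in set 4 (-0.96 ± 0.30).
XBP1 promoter, chr22:28800520-28800819, minus strand: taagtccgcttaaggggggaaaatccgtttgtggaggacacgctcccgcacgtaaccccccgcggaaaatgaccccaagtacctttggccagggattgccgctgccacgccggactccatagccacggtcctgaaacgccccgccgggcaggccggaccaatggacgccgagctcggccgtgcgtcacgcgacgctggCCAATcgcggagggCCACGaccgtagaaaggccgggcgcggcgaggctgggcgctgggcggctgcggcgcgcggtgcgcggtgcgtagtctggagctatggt
CRELD2 promoter, chr22:49918384-49918683, plus strand: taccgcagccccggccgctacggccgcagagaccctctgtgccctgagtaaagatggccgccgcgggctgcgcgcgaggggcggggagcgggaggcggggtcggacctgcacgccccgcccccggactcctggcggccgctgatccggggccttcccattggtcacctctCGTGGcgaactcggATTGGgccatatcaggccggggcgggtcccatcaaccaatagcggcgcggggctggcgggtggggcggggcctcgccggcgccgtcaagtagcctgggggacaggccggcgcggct

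Targets of ATF4, the factor of the integrated stress response that raises amino acid synthesis and tRNA charging, were lower in set 2 as well. Of 29 tested, 10 were past the threshold toward set 4, beside 3.52% of all genes tested, and 0 toward set 2, with a median of -0.45. The pseudokinase TRIB3 had 43.7 and 52.6 CPM in set 2, against 111 and 156 CPM in set 4 (-1.45 ± 0.27). WARS, the tryptophanyl-tRNA synthetase, had 340 and 307 CPM in set 2, against 653 and 643 CPM in set 4 (-0.99 ± 0.25), and PHGDH, the first enzyme of serine synthesis, 219 and 177 CPM against 437 and 348 CPM (-0.98 ± 0.25). No set 2 library reached the lower set 4 library in any of the 3. GDF15, a cytokine of cell stress and among the 15 largest differences toward set 4, had 13.3 and 16.0 CPM in set 2, against 115 and 87.1 CPM in set 4 (-2.74 ± 0.30). The 12-library fit put 2 list members past the threshold and DESeq2 4, all toward set 4.

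**Figure D2:**
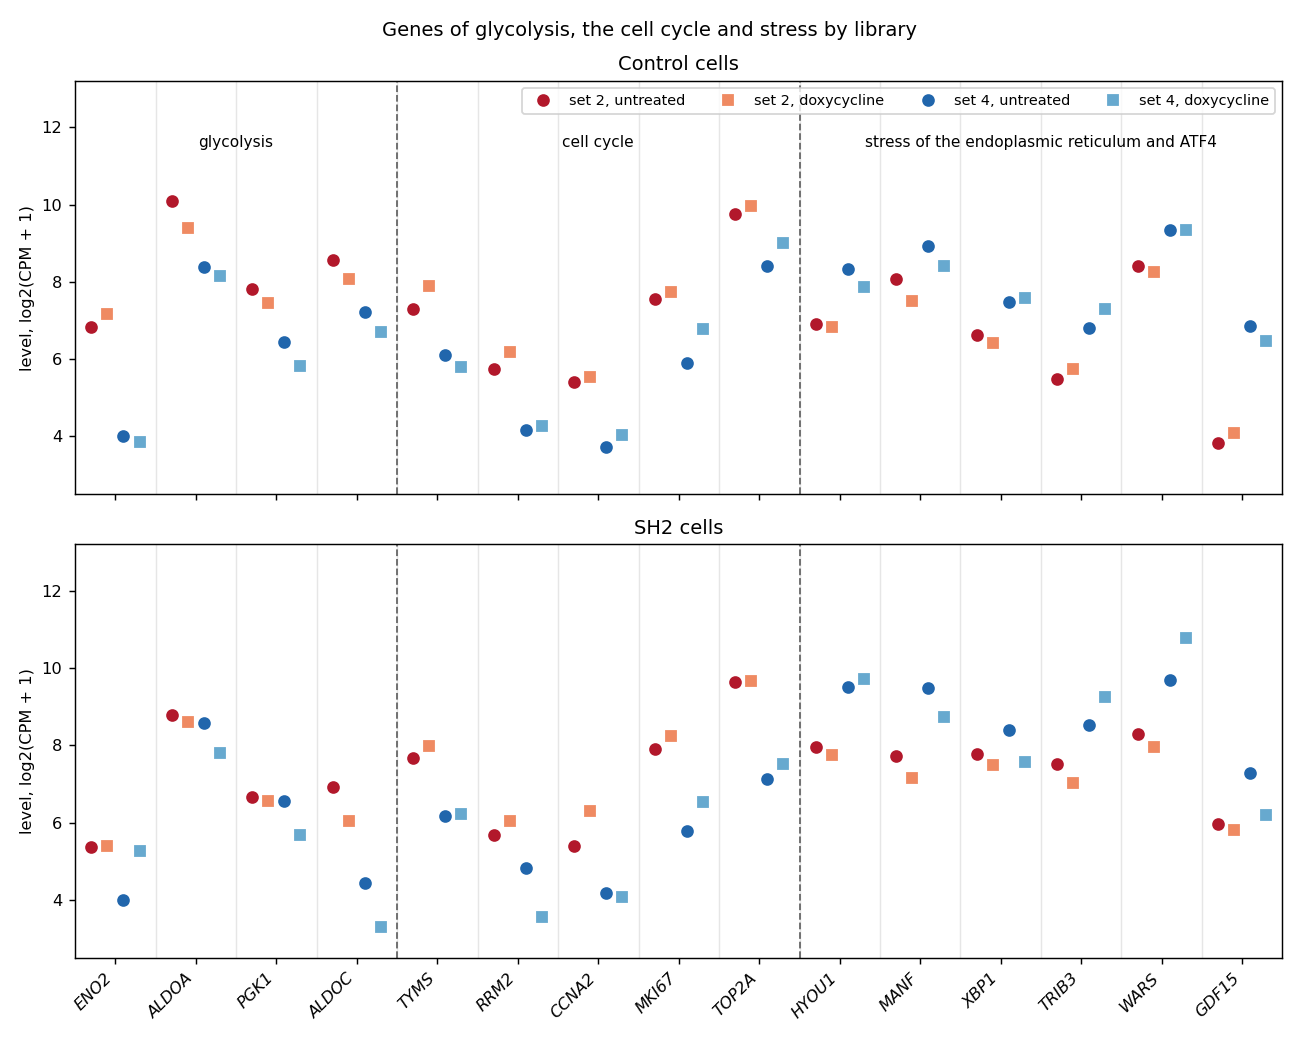
Levels on the log2(CPM + 1) scale of glycolysis, cell cycle and stress genes in each library of sets 2 and 4, control cells in the upper and SH2 cells in the lower panel; each point is 1 library. In control cells ENO2 stood at 113 and 142 CPM in set 2, against 15.2 and 13.4 CPM in set 4, and TRIB3 at 43.7 and 52.6 CPM, against 111 and 156 CPM.

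Other lists differed in part of their members, beside 6.45% of all genes tested that were past the threshold toward set 2 and 3.52% toward set 4. Of 18 heat shock genes tested 5 were past the threshold toward set 2, with a list median of 0.07. HSPB1, a small chaperone, had 251 and 231 CPM in set 2, against 60.0 and 40.5 CPM in set 4 (2.30 ± 0.27), and the cochaperone DNAJB1 309 and 465 CPM against 167 and 135 CPM (1.35 ± 0.26). Among 18 adhesion genes 5 were past the threshold toward set 2 and 2 toward set 4. Of these 18, 3 reached the count minimum in both libraries of set 2 only, PECAM1 among them (9 reads in the treated library of set 4). The filter favoured a difference toward set 2 in them, so nothing is read from these adhesion counts. The same limit held for 1 heat shock and 2 interferon-response genes, and 1 interferon-response gene reached the minimum in set 4 only. The integrin chain ITGB2 had 307 and 508 CPM in set 2, against 83.9 and 143 CPM in set 4 (1.86 ± 0.26). PECAM1, an adhesion molecule of blood and vessel cells, had 24.2 and 28.8 CPM in set 2, against 3.62 and 3.44 CPM in set 4 (2.90 ± 0.45). Of 15 mitochondrially encoded transcripts 4 were past the threshold toward set 4 and 0 had a positive difference, with a median of -0.41. MT-ATP8, a subunit of ATP synthase, had 465 and 338 CPM in set 2, against 1240 and 1188 CPM in set 4 (-1.60 ± 0.25); its gene overlaps that of MT-ATP6, so reads there are hard to assign. Interferon-response genes had 1 member past the threshold toward set 2 and 5 toward set 4 of 25 tested. Cytosolic ribosomal protein genes had 1 of 75 past the threshold, and nuclear oxidative phosphorylation genes 2 of 47, all toward set 2 and below the share over all genes. The 12-library fit put 2 heat shock, 2 adhesion and 1 mitochondrially encoded gene past the threshold, and DESeq2 2, 3 and 2. In both, 0 interferon-response, ribosomal protein and oxidative phosphorylation genes were past it. The largest differences toward set 4 also held ASS1, the argininosuccinate synthase, with 12.3 and 22.4 CPM in set 2, against 164 and 64.2 CPM in set 4 (-2.52 ± 0.44). The ecto-enzyme NT5E (CD73), which makes adenosine, had 3.32 and 2.88 CPM in set 2, against 42.3 and 24.1 CPM in set 4 (-3.33 ± 0.44). TINAGL1, a secreted matrix protein, had 1 read in set 2 and 91 in set 4. NT5E and TINAGL1 had at most 9 reads in either library of set 2, under the count minimum of 10. Both entered the test through set 4 alone, so nothing is read from their direction.

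No tested gene of the series title was past the threshold. MYB, a transcription factor of blood progenitors, had 281 and 337 CPM in set 2, against 352 and 274 CPM in set 4 (-0.00 ± 0.25). HOXB4, a homeobox factor, had 35.6 and 20.2 CPM in set 2, against 11.6 and 29.8 CPM in set 4 (0.48 ± 0.38), so that the sets overlapped. ALDH1A1, an aldehyde dehydrogenase, had 7.12 and 8.01 CPM in set 2, against 9.76 and 10.3 CPM in set 4 (-0.39 ± 0.47). IGF2BP1 had 6 reads in set 2 and 1 in set 4, too few for a test. Among 13 aldehyde dehydrogenases tested, 1 was past the threshold, near the 6.45% of all genes tested. It was ALDH1A2, which makes retinoic acid, with 33.2 and 29.5 CPM in set 2, against 2.89 and 1.53 CPM in set 4 (3.82 ± 0.47). ALDH1A2 had 8 and 4 reads in set 4, under the count minimum of 10, so nothing is read from its direction. Of the 13, 1 reached that minimum in both libraries of set 2 only and 3 in those of set 4 only.

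**Figure D3:**
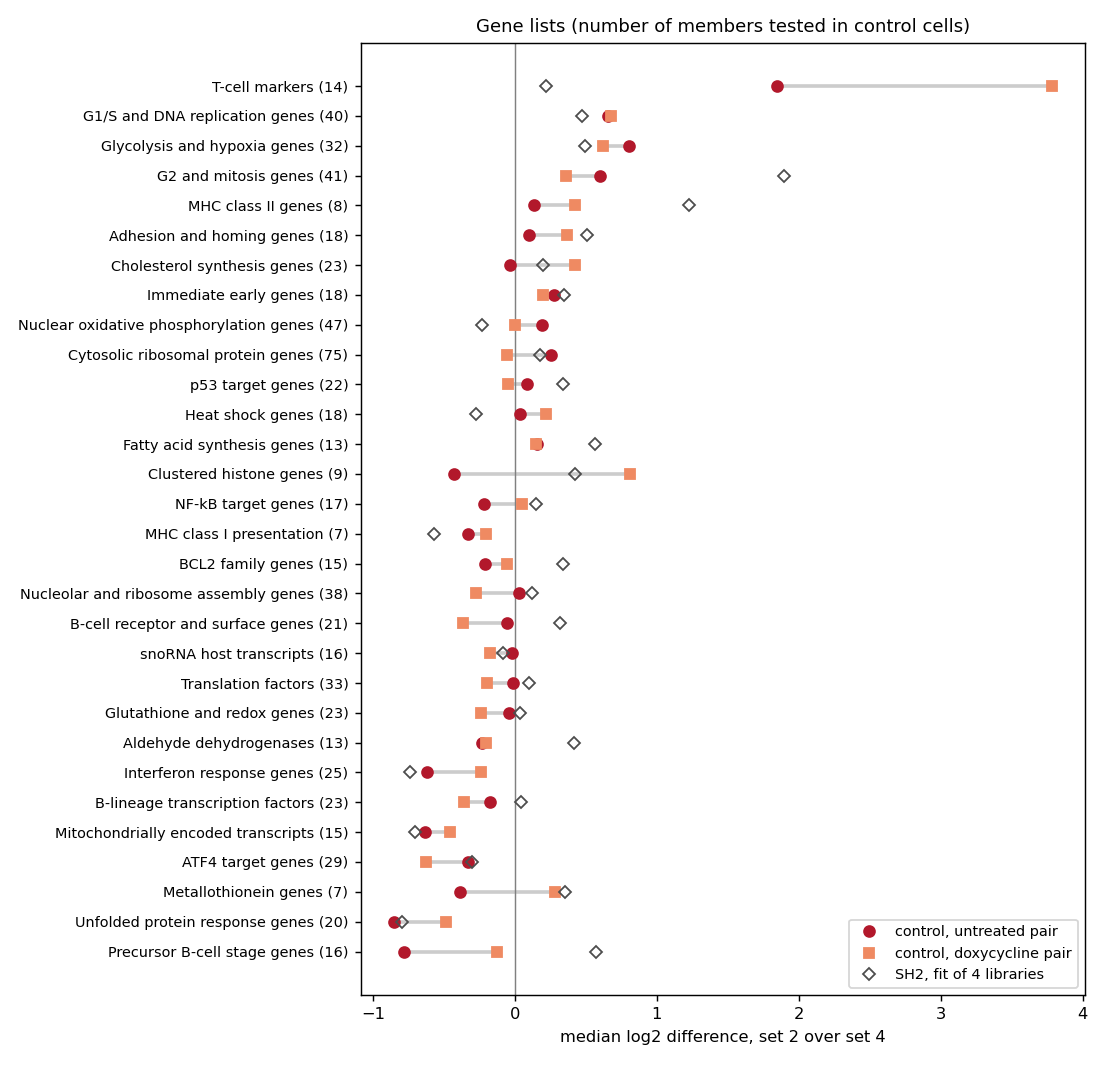
Median log2 difference, set 2 over set 4, of each gene list with at least 7 members tested in control cells: circles for the untreated and squares for the treated control pair (log2 of CPM + 1), diamonds for the SH2 fit. Each median is over the members tested in that kind of cell, so the genes can differ. T-cell markers lie at 1.85 and 3.79 in control cells (14 tested) and 0.22 in SH2 cells (8 tested). G2 and mitosis genes lie at 0.60, 0.36 and 1.90. Of the 14 T-cell markers tested 8 passed the count minimum through set 2 alone.

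SH2 cells of the same sets show how far these differences recur where no control library enters. The cells differ in their light chain: IGKC had at most 1.81 CPM in SH2 cells of sets 2 and 4, and IGLC2, a lambda constant gene, at most 1.42 CPM in the control cells of these sets. HLA-DRB5, an MHC class II gene that only some haplotypes carry and whose reads can be mistaken for those of HLA-DRB1, had 122 and 105 CPM in control cells of set 2 and 52.8 and 73.4 CPM in those of set 4, against at most 0.59 CPM in any SH2 library. Whether the control cells are the same cells as the SH2 cells apart from the construct was not tested, and a difference of origin cannot be told apart from other differences between them. Between the SH2 libraries of sets 2 and 4 edgeR put 0 of 10781 genes past the threshold (0%), with 1267 at an unadjusted p under 0.05, 706 higher in set 2 (6.55%) and 561 lower (5.2%). DESeq2 put 76 past it and the 12-library fit 494. The treated SH2 library of set 4 stood apart: with the untreated library of that set left out, so that the treated one alone stood for set 4, 2804 genes were past the threshold in the fit of the other 11, and with the treated one left out 499 were. Of the 681 genes higher in control set 2, 525 were tested in SH2 cells. Of these, 414 had a positive difference there (78.9%), 140 with an unadjusted p under 0.05 in that direction and 5 in the opposite one. Of the 372 genes lower in control set 2, 350 were tested in SH2 cells and 125 had a positive difference (35.7%), 48 with such a p in the negative direction and 8 in the positive one. Over all genes tested in both kinds of cell 50.8% had a positive difference in SH2 cells.

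**Figure D4:**
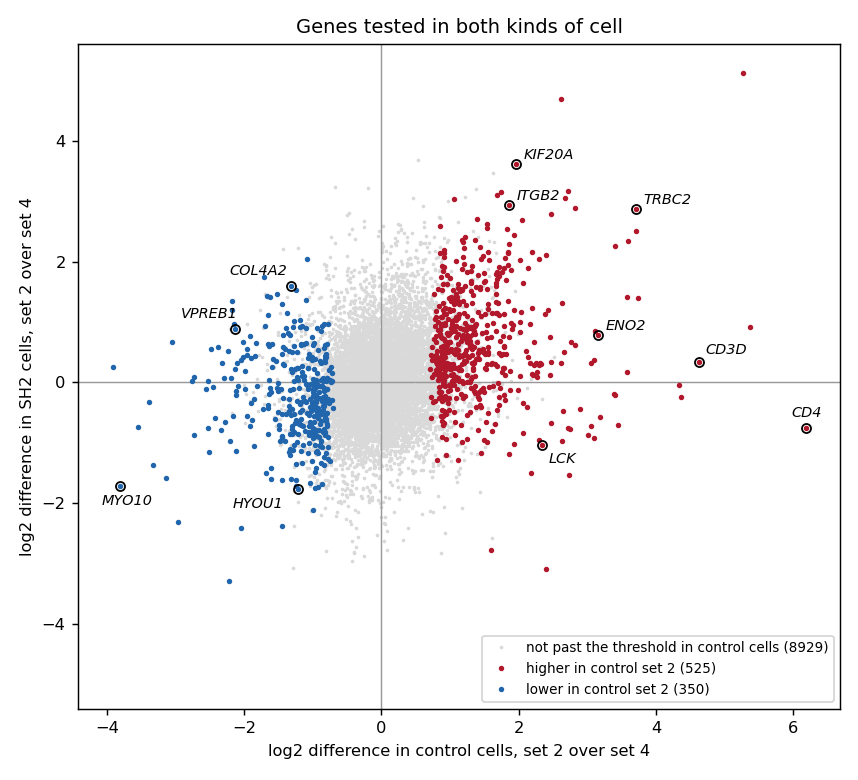
Log2 difference of set 2 over set 4 in control cells (horizontal) and in SH2 cells (vertical); each point is a gene tested in both, red and blue those past the threshold in control cells. Of the red points 414 of 525 lie above 0 on the vertical axis and of the blue ones 125 of 350, while CD4, CD3D and LCK lie far to the right at SH2 values of -0.76, 0.35 and -1.03.

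Mitosis genes differed in the same direction in SH2 cells. Of 41 tested 41 had a positive difference, and the median was 1.90. At an unadjusted edgeR p under 0.05, 37 were higher in set 2, beside 6.55% of all genes tested. The 12-library fit put 33 past the threshold toward set 2. Of all 11968 genes tested in that fit, 305 were past it toward set 2 and 189 toward set 4. Without the treated library of set 4, so that 1 library stood for that set, the median was 1.85. TOP2A had 791 and 807 CPM in SH2 cells of set 2, against 139 and 183 CPM in those of set 4 (2.33 ± 0.47, unadjusted p = 0.000206, adjusted p = 0.0674 by edgeR). MKI67 had 238 and 303 CPM in set 2, against 54.3 and 92.0 CPM in set 4 (1.92 ± 0.43, adjusted p = 0.0978 by edgeR). Both genes were higher in both set 2 libraries. Replication genes were less uniform: 33 of 40 were positive, 6 were higher and 1 lower at an unadjusted p under 0.05, and the median was 0.47. The 12-library fit put 3 past the threshold toward set 2 and 1 toward set 4. TYMS had 1.64 ± 0.42 in SH2 cells and 1.66 ± 0.27 in control cells, while MCM3, a subunit of the replicative helicase, had 0.21 ± 0.41 in SH2 cells and 1.34 in control cells, and the flap endonuclease gene FEN1 -0.14 ± 0.42 and 1.34. Unfolded protein response genes were again on the set 4 side, with 19 of 20 negative, 7 at an unadjusted p under 0.05, beside 5.2% of all genes tested, and a median of -0.79. The 12-library fit put 6 of 20 past the threshold toward set 4, beside 189 of all 11968 genes tested in it, with a median of -0.83. Without the treated SH2 library of set 4, so that 1 library stood for that set, the median was -1.14. HYOU1 had 247 and 213 CPM in SH2 cells of set 2, against 723 and 844 CPM in those of set 4 (-1.77 ± 0.46, adjusted p = 0.137 by edgeR). Of the 29 ATF4 targets 3 were lower at an unadjusted p under 0.05 and 1 was higher, with a median of -0.31 beside 0.01 over all genes tested. WARS had 311 and 249 CPM in set 2, against 827 and 1756 CPM in set 4 (-2.12 ± 0.52, adjusted p = 0.119 by edgeR).

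Glycolysis genes were less uniform in SH2 cells, with 26 of 35 positive and a median of 0.49. At an unadjusted edgeR p under 0.05, 9 were higher in set 2, beside 6.55% of all genes tested. In the 12-library fit the median of the 35 genes was 0.47, and without the treated SH2 library of set 4 it was 0.16. ALDOC had 119 and 64.9 CPM in SH2 cells of set 2, against 20.5 and 8.76 CPM in those of set 4 (2.70 ± 0.43, adjusted p = 0.0547 by edgeR). ENO2 had 40.3 and 41.0 CPM in set 2, against 14.8 and 37.1 CPM in set 4, with a difference between the cells (control minus SH2) of 2.36 ± 0.47 on the log2 scale, which did not pass (adjusted p = 0.0664 by edgeR). Precursor B-cell genes ran the other way in the fit of the 4 SH2 libraries but not in the untreated pair. In the fit 15 of 17 were positive, with a median of 0.57. The median was -0.29 between the untreated and 1.89 between the treated SH2 libraries. In the 12-library fit the median of the 17 genes was 0.50, with 15 positive, and without the treated SH2 library of set 4 it was -0.33, with 4 positive. VPREB1 had 200 and 163 CPM in set 2, against 225 and 41.4 CPM in set 4.

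T-cell genes as a list stood close together in the SH2 cells of both sets. The 21 markers summed to 216 and 189 CPM in SH2 cells of set 2, against 167 and 205 CPM in those of set 4, and of 8 tested 5 were positive, with a median of 0.22. CD3E, GATA3 and MAL were at or below 0.91 CPM in each of these libraries, while CD3G had 50.4 and 43.3 CPM in set 2, against 35.9 and 85.2 CPM in set 4. TRBC2 was the exception, with 37.1 and 27.0 CPM in set 2, against 5.43 and 3.37 CPM in set 4 (2.86 ± 0.53, adjusted p = 0.0568 by edgeR). A fit of all 12 libraries tested whether the set difference itself differed between control and SH2 cells, and 15 of 11968 genes passed (0.125%), 13 of them with the higher value in control cells; the control side of this test is the contrast that was chosen with results known. T-cell genes among them were CD3D, with a control minus SH2 difference of 4.24 ± 0.56 (adjusted p = 0.0225), CD4 (6.98 ± 0.94, adjusted p = 0.0225) and LCK (3.32 ± 0.49, adjusted p = 0.025), all by edgeR. CD3G was the fourth. COL4A2, a collagen of basement membranes, had 6.64 and 6.41 CPM in control set 2, against 18.4 and 14.9 CPM in control set 4, and ran the other way in SH2 cells, with 42.7 and 44.8 CPM against 15.7 and 13.1 CPM; its difference between the cells was -2.92 ± 0.45 (adjusted p = 0.0339 by edgeR). Fitted on the 8 libraries of sets 2 and 4 alone, the test passed 0 genes, with single libraries of sets 2 and 4 left out between 0 and 1675.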

How the data were processed

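The authors deposited whole-read counts per gene made with HTSeq after STAR alignment to hg38, per the submitters' processing notes, where FastQC and DESeq2 appear as well. Neither tool versions nor the annotation were given in the sources used. A deposited table of normalized signal equalled these counts times a constant per library (100% of values whole, tolerance 0.01) and gave the gene names. The 5 summary lines of each count table were left out; alignments that were not unique took 42.2% to 63.8% of reads, so genes with near-identical copies can be undercounted.

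The counts were fitted with edgeR 4.0.16 under R 4.3.3 (filterByExpr, minimum count 10; TMM; robust quasi-likelihood test; Benjamini-Hochberg adjustment over all genes tested, threshold 0.05). Control libraries of sets 2 and 4 were fitted alone with terms for set and doxycycline (1 residual degree of freedom), SH2 libraries likewise, and the difference between the cells on all 12 libraries. Alternatives were DESeq2 1.42.0 size factors and Wald test, no filter, no doxycycline term, the 12-library fit and single libraries left out; a 2-fold minimum, recovered reads and calls shared by both fits were added after the data were seen. Differences of single pairs used log2(CPM + 1). Counting intervals are exact and cover counting error only. No library pair agreed within sampling noise (chi-square per degree of freedom 6.32 to 19.2). Positions are from GENCODE release 29 on GRCh38.

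The comparison, its members and the 37 gene lists (894 genes, 892 found) were chosen with earlier results of these data known, so lists have no set test. Named genes are, in the control fit, up to 15 per direction by fold among genes past the threshold whose sets did not overlap and whose mean log2 CPM was 3 or more, the title genes, up to 4 members of each list by p-value, and 6 genes of the test between the cells. Other list members named, and the motifs, were chosen after their values were seen. The pipeline was tested on simulated counts. Some genes that the naming rule covers are not reported here.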

Additional observations from a re-analysis of the deposited data

Results flagged for a closer look

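In 6 of the named genes the set 2 against set 4 difference differed between control and SH2 cells by the edgeR test of that difference on all 12 libraries. The 6 were named for the smallest p-values of this same test, and its control side is the contrast chosen with results known, so the values describe these genes and are no independent evidence. The log2 differences, control minus SH2, were 4.24 for CD3D, 6.98 for CD4, 3.32 for LCK, 3.15 for ATP2A3, 3.54 for OCIAD2 and -2.92 for COL4A2, with adjusted p-values of 0.0225 to 0.0339. ATP2A3, a calcium pump of the endoplasmic reticulum, had 226 and 201 CPM in control set 2, against 40.8 and 36.7 CPM in control set 4, while SH2 cells had 38.3 and 57.7 CPM in set 2, against 44.1 and 126 CPM in set 4. OCIAD2 had 34.2 and 41.0 CPM in control set 2, against 7.95 and 3.44 CPM in control set 4, while SH2 cells had 57.5 and 69.1 CPM in set 2, against 71.8 and 160 CPM in set 4. The treated SH2 library of set 4 had the highest value of the SH2 libraries of sets 2 and 4 in both genes. The test of the difference passed 15 genes on all 12 libraries, 0 on the 8 libraries of sets 2 and 4 alone, and 0 to 5 when 1 control library or 1 SH2 library of set 2 was left out. Leaving out the treated SH2 library of set 4 gave 101 and the untreated one 1675, each with 1 library for that set.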

How the results depend on the processing

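The 2 libraries of each set come from 1 sort, so no alternative separates the sets from their sorts, and with 1 residual degree of freedom the count of genes depends on how the spread is estimated. Depth limits genes of a few CPM, for which 1 read more or less moves the value. Counts of genes past the threshold between control sets 2 and 4 were 226 with the Wald test of DESeq2, 207 in the fit of all 12 libraries and 201 in both fits at once, against 1053. In the fit of the remaining 11 libraries they ran from 1 (without the treated library of set 2) to 40 (without the untreated one of set 4), with 27 without the untreated library of set 2 and 12 without the treated one of set 4. Reads recovered from the deposited normalized table, DESeq2 size factors, no filter and a 2-fold minimum kept the count within 1.5 times (763 to 1126). The doxycycline term is a replicate block over the untreated and the treated pair; without it the counts were 842 in control cells, 0 in SH2 cells and 16 for the difference between the cells. In SH2 cells the count of 0 became 246 without a filter, 76 with DESeq2 and 494 in the 12-library fit, and 55 to 2804 when single libraries were left out, with the highest count without the untreated library of set 4. The 15 genes of the difference between the cells became 292 without a filter, 0 on the 8 libraries of sets 2 and 4, and 0 to 1675 when single libraries were left out: 0 without the treated library of set 2 of either kind of cell or the treated control library of set 4, and 1675 without the untreated SH2 library of set 4. The cause of these changes was not tested.

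Of 108 named genes with a test in the control fit, 45 missed the threshold with DESeq2, 55 in the 12-library fit, 9 without the doxycycline term and 6 without a filter. Without single libraries 89 to 103 missed it. When single libraries were left out, HOXB4 ran from -0.56 (without the untreated library of set 4) to 1.62 (without the treated one of set 2), and MYB from -0.32 to 0.31. The direction of the other named genes held in each alternative.

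List medians moved from those of the fit by more than the standard deviation of the untreated-pair and the treated-pair median in these cases. That spread lies between treatments, not between replicates, and it comes from the same pair medians that are judged here. Where the pairs agree closely, a small shift therefore counts as moved. Pair medians used log2(CPM + 1), while the fit did not. Between the untreated libraries alone they were -0.36 for title genes, -0.23 for aldehyde dehydrogenases, -0.18 for B-lineage factors, -0.23 for immunoglobulin genes, -0.33 for MHC class I, -0.62 for interferon genes, 0.15 for fatty acid synthesis, -0.85 for the unfolded protein response, -0.63 for mitochondrially encoded transcripts, 0.65 for replication, 0.28 for immediate early, -0.22 for NF-kB and -0.21 for BCL2 family genes. Between the treated libraries alone they were -0.33 for title genes, -0.12 for precursor B-cell genes, -0.37 for B-cell receptor genes, -0.17 for immunoglobulin genes, -0.21 for MHC class I, 0.15 for fatty acid synthesis, 0.68 for replication, 0.36 for mitosis, -0.049 for p53 targets, 0.22 for heat shock and 0.28 for metallothionein genes. Without a filter they were 0.22 for title genes, -0.31 for aldehyde dehydrogenases, -0.51 for immunoglobulin genes, 0.031 for fatty acid synthesis, 0.46 for immediate early, 0.46 for adhesion genes and -0.62 for natural killer markers. DESeq2 size factors gave 0.060 for fatty acid synthesis.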
